A study of Homo sapiens with 6 samples.

Results

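A set of 10 long noncoding RNAs that are abundant in many cells or linked to cancer was examined after depletion of FUBP1: MALAT1, NEAT1, H19, MEG3, PVT1, HOTAIR, TUG1, KCNQ1OT1, CYTOR and MIR22HG. They were taken by gene symbol from a table of 58735 genes, of which 14994 are of a long noncoding type. All 10 are in the table, 9 passed the filter on low counts and 1, MEG3, had no count in any sample. The cells carry the label MG63, a human osteosarcoma line in long use. In 3 samples they had received an siRNA that targets FUBP1 (siFUBP1), in another 3 a control siRNA (siMock), and RNA was collected after 48 h. No other treatment was labelled for either group. The samples are replicates of a single cell line, and the labels do not say whether they were separate cultures, so p-values measure the spread between these samples, which may be technical. Poly(A)-selected RNA was sequenced, and between 16309900 and 17484313 reads per sample were counted on genes.

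Long noncoding RNAs are transcripts that are not translated, and many of them act in the nucleus. NEAT1 is the RNA scaffold of paraspeckles, nuclear bodies that hold RNA-binding proteins, and MALAT1 gathers in nuclear speckles beside splicing factors. H19, MEG3 and KCNQ1OT1 are imprinted RNAs, made from the gene copy of a single parent, while CYTOR, PVT1, HOTAIR and TUG1 are studied for their levels in tumors, and MIR22HG is the host transcript of a microRNA. FUBP1 binds single-stranded DNA and RNA and is known as a regulator of transcription and of splicing.

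The way in which an RNA ends decides how it is caught by poly(A) selection. The mature MALAT1 RNA and the long form of NEAT1 carry no poly(A) tail. Their 3′ ends are cut by RNase P and protected by a triple helix that uses an A-rich tract in the transcript itself. The last 120 bases up to that tract are shown with the tract in capitals, from the GENCODE 29 transcripts on GRCh38, for MALAT1 at chr11:65505997-65506116 and for NEAT1 at chr11:65445421-65445540, both on the plus strand.
MALAT1: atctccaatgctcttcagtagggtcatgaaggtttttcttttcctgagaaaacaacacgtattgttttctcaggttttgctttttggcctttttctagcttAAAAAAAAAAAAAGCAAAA
NEAT1: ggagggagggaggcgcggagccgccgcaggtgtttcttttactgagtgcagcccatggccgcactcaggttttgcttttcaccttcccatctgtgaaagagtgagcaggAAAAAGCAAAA
The tract of MALAT1 opens with 13 A and is followed by a further 353 annotated bases, and that of NEAT1 opens with 5 A and closes the annotated transcript. The longest run of A within the longest annotated transcript of the gene was 13 bases in MALAT1, 22 in NEAT1 and 29 in KCNQ1OT1. In H19 it was 5, in PVT1 6 and in MIR22HG 7. How far each RNA was captured through its own A runs was not tested, and the gene counts do not separate the short polyadenylated form of NEAT1 from the long form.

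FUBP1, the target of the siRNA, fell in every siFUBP1 sample. Its level in CPM, the count scaled to a common library size with TMM factors, was 237, 255 and 274 in siMock and 44.3, 43.4 and 53.0 in siFUBP1. The log2 fold change was -2.44 with a standard error (SE) of 0.0895 (edgeR's quasi-likelihood test, adjusted p = 1.90e-17). The study designed 3 siRNAs, and the sources used here do not say which was sequenced. Their guide strands are given with the seed, bases 2 to 8, in capitals, since a seed can pair with other transcripts.
RNAi#1: uAAACUGAaugcgaacacc
RNAi#2: uAAGAGGUuugucagcacc
RNAi#3: uUUCUUCUaugaguugccg
In the longest transcript of TUG1 the match to the seed, TCAGTTT for RNAi#1, ACCTCTT for RNAi#2 and AGAAGAA for RNAi#3, was found 3, 2 and 2 times. In MALAT1 it was found 1, 1 and 5 times, and in NEAT1 3, 1 and 4 times. The longest transcripts of H19 and PVT1 held no match to any of the 3. Only the longest transcript of each gene was searched. That of PVT1 has 1699 bases, against 5493 in all its annotated exons, and that of CYTOR 7512 against 17693. Over the longest transcripts of all 14994 long noncoding genes the matches numbered 0.119, 0.0833 and 0.274 per 1000 bases, against 0.402, 0.268 and 0.268 in TUG1. The highest density was in HOTAIR for RNAi#3, at 1.24, with no match to the other guides. For the same guide MALAT1 was at 0.574, and for RNAi#1 MIR22HG was at 0.381 and CYTOR at 0.266. For RNAi#2, the longest transcripts of PVT1, CYTOR and HOTAIR held no match. A match is a description of the sequence, not a site of action.

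The label of the cells was checked against genes that mark osteoblast-lineage cells, and several of them were absent. COL1A2, a chain of type I collagen, had no read in any sample. SPARC, or osteonectin, had at most 5 reads and ALPL, the bone alkaline phosphatase, at most 1. COL1A1, the partner chain in type I collagen, had 1692 to 2000 reads in siMock and 769 to 792 in siFUBP1. RUNX2, the transcription factor of bone formation, had 6 to 8 reads in siMock and 39 to 97 in siFUBP1, and VIM, a mesenchymal filament protein, had 2312 to 3731 over all samples. Of 10 markers of other cell types, 4 had enough reads to be tested, with adjusted p by edgeR from 0.0597 for CDH5, of endothelium, to 0.749 for CDH1, of epithelium. PECAM1, of endothelium and too low to be tested, had 11, 10 and 7 reads in siMock and 1, 0 and 1 in siFUBP1, and CDH5, also lower in every siFUBP1 sample, had a log2 fold change of -0.56. The part of these markers in the results was not tested. The most abundant was EPCAM, an epithelial adhesion molecule, at 59 to 83 reads per sample. KRT5, CD3E and ALB were at 0. The cells are therefore named by their label only. In bulk RNA, fewer cells of a type and less RNA per cell cannot be told apart.

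Of the 9 RNAs tested, 7 passed an adjusted p of 0.05 in edgeR's test, 3 higher in siFUBP1 (PVT1, CYTOR and HOTAIR) and 4 lower (NEAT1, TUG1, MIR22HG and KCNQ1OT1). Over all 16116 genes tested the share was 60.2% (30.1% higher and 30.1% lower), so a count of this size is near the background, and over the 2213 long noncoding genes tested it was 45.4%. A change of over 2-fold as well was seen in 2 of the 9, PVT1 and KCNQ1OT1, against 17.3% of all genes and 28.1% of the long noncoding genes. In 6 of the 9 the siMock and siFUBP1 samples did not overlap, against 63.9% of all genes and 51.3% of the long noncoding genes. The median log2 fold change was -0.24 over the 9 RNAs, 0.21 over the long noncoding genes tested and near 0 (0.00197) over all genes.

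**Figure D1:**
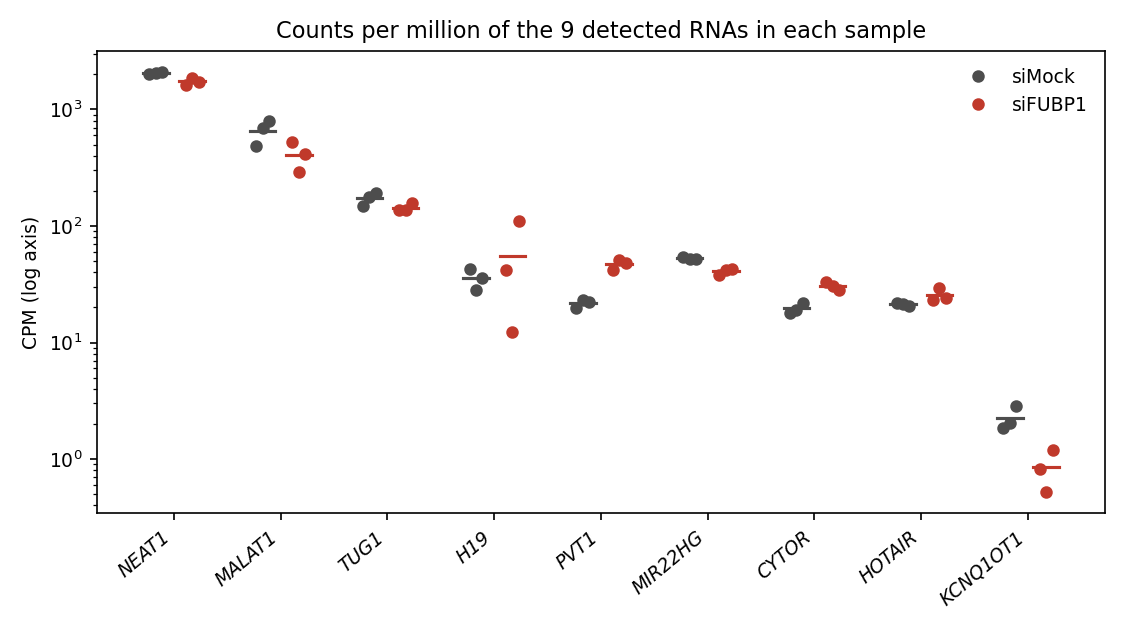
CPM of the 9 detected RNAs (log axis) in each siMock (grey) and siFUBP1 (red) sample, with a line at the mean of each group of 3. The levels run from about 2053 CPM for NEAT1 to about 2.26 CPM for KCNQ1OT1 in siMock, and the 3 siFUBP1 samples of H19 spread from 12.4 to 110.4 CPM.

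**Figure D2:**
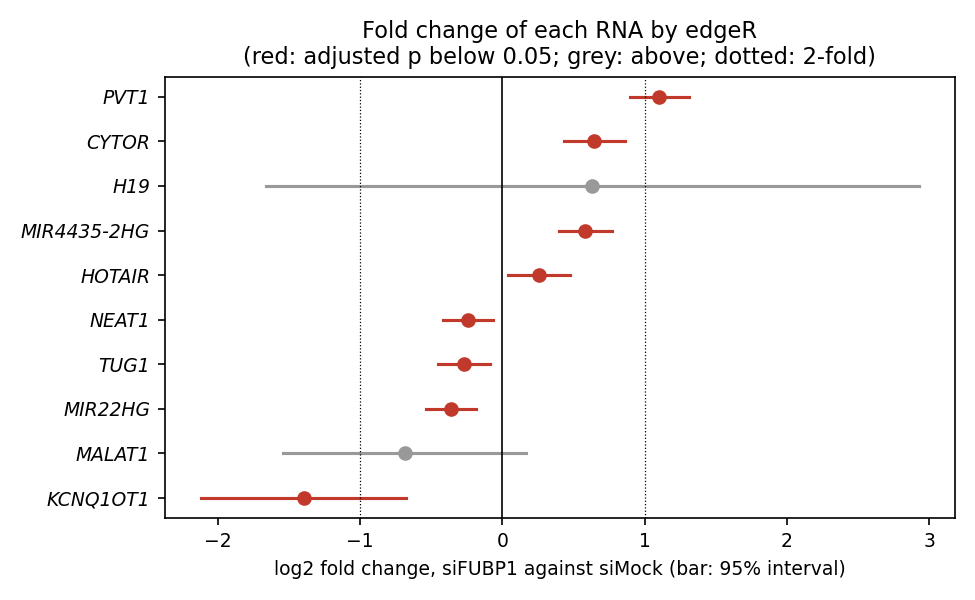
Log2 fold change of siFUBP1 against siMock by edgeR with its 95% interval for the 9 RNAs and for MIR4435-2HG, the copy of CYTOR. The intervals of PVT1 (0.90 to 1.31) and KCNQ1OT1 (-2.12 to -0.68) lie on opposite sides of 0, and those of H19 (-1.66 to 2.93) and MALAT1 (-1.54 to 0.17) cross it.

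The RNAs differed widely in level per length. On the scale of FPKM (fragments scaled by gene length and library size), the mean over the 6 samples was 82.5 for NEAT1 and 59.9 for MALAT1, the 2nd and 5th of 2213 long noncoding genes. MIR22HG, H19 and TUG1 followed at 15.6, 15.5 and 15.4 FPKM, ranks 37, 39 and 41, and their samples overlapped. HOTAIR lay at 8.89 FPKM, PVT1 at 6.20 and CYTOR at 1.41. In siMock the HOTAIR samples (7.79 to 8.24 FPKM) lay above the PVT1 samples (3.59 to 4.16), while in siFUBP1 the ranges overlapped (8.78 to 11.2 against 7.52 to 9.23), with HOTAIR the higher within each sample. KCNQ1OT1 was last but 1 of the long noncoding genes at 0.0168 FPKM, a value divided by an annotated length of 91667 bases. The 10 RNAs together took 0.293% ± 0.0206 (SD, n = 3) of all counts in siMock and 0.257% ± 0.00497 in siFUBP1 (exact permutation test, two-sided, p = 0.1, the smallest that 3 against 3 samples allow). NEAT1 and MALAT1 made up 89.3% ± 0.202 of these counts in siMock and 86.3% ± 2.08 in siFUBP1.

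NEAT1 (ENSG00000245532) covers chr11:65422774-65445540 on the plus strand of GRCh38 as a single annotated block. Its level was 2011, 2042 and 2105 CPM in siMock and 1618, 1869 and 1725 CPM in siFUBP1. On this scale every siFUBP1 sample was below every siMock sample, the first by the most. As a percentage of all counts the groups overlapped (exact permutation test, two-sided, p = 0.2). The second siFUBP1 sample was then at 0.1965%, above the first siMock sample at 0.1943%. The fall was small, with a log2 fold change of -0.24 (SE 0.0845, edgeR adjusted p = 0.0163), or a level of 84.6% of siMock. It missed the threshold when library size alone set the scale (-0.14, edgeR adjusted p = 0.132) and without siFUBP1 replicate 1 (-0.18, edgeR adjusted p = 0.1), with adjusted p between 0.00194 and 0.132 over all alternatives.

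MALAT1 (ENSG00000251562) lies on the same strand, at chr11:65497688-65506516. It was measured at 483, 696 and 799 CPM in siMock and at 524, 288 and 416 CPM in siFUBP1. The groups overlapped, because the first siMock sample was lower than the first siFUBP1 sample. Its log2 fold change of -0.69 was larger in size than that of NEAT1, but the SE was 0.316 and the adjusted p by edgeR was 0.134, with a 95% interval from -1.54 to 0.17. The difference thus missed the threshold of the test, and the interval holds both a large fall and a slight rise.

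MALAT1 was variable within both groups at a depth where counting error is small. Its coefficient of variation (CV) was 24.5% in siMock and 28.8% in siFUBP1, with 5003 to 12474 reads per sample. Over 11115 tested genes with 100 counts or more on average the median CV was 7.22% and 6.86%, and 1.3% and 0.558% of those genes varied more than MALAT1. NEAT1 varied far less, with a CV of 2.33% and 7.27%. The NEAT1 to MALAT1 ratio of FPKM was 1.62, 1.14 and 1.02 in siMock and 1.20, 2.51 and 1.61 in siFUBP1, and the groups overlapped (exact permutation test, two-sided, p = 0.3).

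Other measures of the RNA moved between the same samples. Mitochondrial transcripts took 5.69%, 5.54% and 6.52% of the counts in siMock and 4.82%, 3.93% and 4.57% in siFUBP1. Within siFUBP1 their order was that of MALAT1, with the first sample highest and the second lowest. Within siMock it was not, as MALAT1 was lowest in the first sample and the mitochondrial share in the second. The clustered histone genes, whose mRNAs largely end without a poly(A) tail, summed to 205.2, 204.8 and 205.7 CPM in siMock and 109.3, 103.4 and 102.2 CPM in siFUBP1. The part of these shifts in the levels of MALAT1 and NEAT1 was not tested.

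Over the 6 samples, and as a description with no test, the genes most like MALAT1 in log2 CPM among 4134 genes with 1000 counts or more on average were TM9SF4 (Pearson r = 0.982), SMARCC2 (0.980) and MICAL3 (0.974). Those most like NEAT1 were SLC35G2 (0.990), FGF2 (0.986) and SART3 (0.979). The samples share library and depth with both genes of each pair, and a difference between the 2 groups alone gives a high r.

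Transcripts of the proteins that NEAT1 holds in paraspeckles were measured next. Of 21 such genes tested, 12 fell and 2 rose by edgeR's test, beside 30.1% of all genes in each direction, so the total of 14 is near the background of 60.2%, with a median log2 fold change of -0.35. PSPC1, a core paraspeckle protein, was measured at 52.2, 51.7 and 50.9 CPM in siMock and at 23.8, 18.1 and 21.9 CPM in siFUBP1. All 3 siFUBP1 values lay well below the siMock values, with a log2 fold change of -1.28 (SE 0.0995, edgeR adjusted p = 2.85e-11). PSPC1 was the only gene of the list past 2-fold, 1 of 21 beside 17.3% of all genes. Its partners NONO (-0.58, edgeR adjusted p = 6.16e-07) and SFPQ (-0.43, 3.89e-05), on which paraspeckles are built, also fell. HNRNPK, needed for paraspeckles to form, fell too (-0.28, edgeR adjusted p = 0.00301). NUDT21, a subunit of the cleavage factor that sets the poly(A) site of short NEAT1, rose (0.48, edgeR adjusted p = 7.75e-06). Of the same factor, CPSF7 fell (-0.46, edgeR adjusted p = 7.25e-06) and CPSF6 was at -0.04 (0.731).

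MALAT1 resides in nuclear speckles. Of 18 genes for speckle proteins tested, 9 fell and 3 rose by edgeR's test, beside 30.1% of all genes in each direction. None was past 2-fold, as 17.3% of all genes were, and the median was -0.14. The total of 12 is near the background of 60.2%, and the 3 rises were 1 without siMock replicate 2 or without siFUBP1 replicate 3. SRSF2, a splicing factor, fell by 0.77 on the log2 scale (SE 0.0836, edgeR adjusted p = 1.30e-08) and SRRM2, a scaffold of speckles, by 0.63 (SE 0.0901, edgeR adjusted p = 1.26e-06). SRSF1, a splicing factor that binds MALAT1, fell by 0.41 (edgeR adjusted p = 0.000251), and RNPS1, of the exon junction complex, rose by 0.29 (0.00166).

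Among 19 genes that cut, modify or degrade nuclear RNA, 6 rose and 6 fell by edgeR's test, beside 30.1% of all genes in each direction. With the replicate number as a block 7 rose and 9 fell, and after correction for GC content and length 6 rose and 10 fell. RNase P, which releases the 3′ end of MALAT1, had subunits in both directions: POP1 fell (log2 fold change -0.94, SE 0.146, edgeR adjusted p = 3.96e-06) and RPP40 rose (0.80, SE 0.137, 1.52e-05). Its subunits RPP21 (-0.50, edgeR adjusted p = 0.309), RPP30 (0.20, 0.061) and RPP38 (0.12, 0.427) missed the threshold. ELAC2, which trims the small RNA cut from MALAT1, fell (-0.80, edgeR adjusted p = 1.04e-08). METTL16, which binds the MALAT1 triple helix, rose (0.94, SE 0.0885, edgeR adjusted p = 1.07e-09). Past 2-fold were 2 of the 19, DICER1 and RBM7, beside 17.3% of all genes. DICER1, the enzyme that cuts microRNA precursors, fell (-1.17, SE 0.0917, edgeR adjusted p = 3.42e-11). RBM7, which guides the nuclear exosome, rose (1.08, SE 0.104, edgeR adjusted p = 1.40e-09). After correction for GC content and length RBM7 was at 0.97, under 2-fold.

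CYTOR (ENSG00000222041) is a cytoplasmic RNA on the plus strand at chr2:87454781-87636740, and MIR4435-2HG is its copy on the minus strand at chr2:111036776-111523376. The copies share 2985 windows of 50 bases, which are 16% of the windows of CYTOR and 21.6% of those of MIR4435-2HG, so reads can fall on either. The regions from 250 bases before to 50 bases after their RefSeq starts (GRCh38.p14) are shown because they hold an identical run of 241 bases, in capitals. They are chr2:87455177-87455476 on the plus strand for CYTOR and chr2:111495112-111495411 on the minus strand for MIR4435-2HG.
CYTOR: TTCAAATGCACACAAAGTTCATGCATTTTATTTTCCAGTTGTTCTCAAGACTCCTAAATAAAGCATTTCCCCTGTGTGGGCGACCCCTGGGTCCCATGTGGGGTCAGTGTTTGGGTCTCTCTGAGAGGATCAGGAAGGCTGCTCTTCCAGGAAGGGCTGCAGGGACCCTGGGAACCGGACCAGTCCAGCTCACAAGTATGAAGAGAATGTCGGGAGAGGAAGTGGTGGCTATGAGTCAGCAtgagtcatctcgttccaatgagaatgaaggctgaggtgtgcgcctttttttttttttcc
MIR4435-2HG: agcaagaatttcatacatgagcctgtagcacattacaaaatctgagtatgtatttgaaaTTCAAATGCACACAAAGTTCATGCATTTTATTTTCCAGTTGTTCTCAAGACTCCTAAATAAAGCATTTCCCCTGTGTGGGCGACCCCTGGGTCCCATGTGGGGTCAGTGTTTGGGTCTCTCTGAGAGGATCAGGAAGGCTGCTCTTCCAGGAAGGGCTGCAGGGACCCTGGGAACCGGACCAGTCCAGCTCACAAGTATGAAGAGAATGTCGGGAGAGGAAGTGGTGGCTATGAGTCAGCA
CYTOR was measured at 18.0, 19.1 and 21.7 CPM in siMock and at 32.9, 30.7 and 28.4 CPM in siFUBP1. MIR4435-2HG was measured at 30.3, 32.8 and 32.9 CPM in siMock and at 50.3, 50.1 and 43.5 CPM in siFUBP1. For both copies every siFUBP1 sample was above every siMock sample. The log2 fold change was 0.65 for CYTOR (SE 0.104, edgeR adjusted p = 6.26e-06) and 0.58 for MIR4435-2HG (SE 0.0917, edgeR adjusted p = 4.85e-06). Both values are uncertain as to the copy. Their summed counts, which do not depend on how reads were split between them, rose by 0.61 (edgeR adjusted p = 9.01e-07). MIR4435-2HG also shares 727 exonic bases with BCL2L11 on the other strand, and the library kit keeps no strand.

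PVT1 (ENSG00000249859), an RNA gained with its chromosome arm in many tumors, had the largest rise of the 9. It lies on chromosome 8 from 127794533 to 128101253 on the plus strand of GRCh38, and hosts several microRNAs. Its level was 19.98, 23.07 and 22.35 CPM in siMock and 41.6, 50.8 and 48.2 CPM in siFUBP1. The lowest siFUBP1 sample was far above the highest siMock sample. The log2 fold change was 1.10 (SE 0.0994, 95% interval 0.90 to 1.31, edgeR adjusted p = 4.39e-10), which is 2.15-fold, and 5.95% of its 50-base windows occur in other annotated genes. Past 2-fold and higher were 8.16% of all genes and 19.5% of the long noncoding genes. With limma on log2(FPKM + 1) the value was under 2-fold, and its adjusted p was below 0.05 under every alternative.

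HOTAIR (ENSG00000228630), an RNA known for its partner PRC2, the complex that writes a silencing mark on histones, lies in the HOXC cluster at chr12:53962308-53974956 on the minus strand. It was measured at 21.7, 21.5 and 20.6 CPM in siMock and at 23.0, 29.2 and 24.1 CPM in siFUBP1. The groups did not overlap, and the second siFUBP1 sample was the highest. This is a log2 fold change of 0.26 (SE 0.106, edgeR adjusted p = 0.0382). It missed the threshold in 8 of 17 alternatives and was 0.15 without siFUBP1 replicate 2, with adjusted p between 0.00656 and 0.268.

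Among the genes of the cluster, HOXC10 rose from 61.0 ± 3.33 to 102.9 ± 3.99 CPM (SD, n = 3, log2 fold change 0.75, edgeR adjusted p = 7.48e-09). HOXC11 (-0.31, edgeR adjusted p = 0.00703), whose span overlaps HOTAIR on the opposite strand with no shared exon, and HOXC13 (-0.24, 0.0223) fell. The HOX proteins are transcription factors of body position. HOXC13 missed the threshold in 6 of 17 alternatives and HOXC11 in 2.

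Of 14 chromatin partners attributed to these RNAs, 4 rose and 6 fell by edgeR's test, beside 30.1% of all genes in each direction. The median was -0.17, and none was past 2-fold, as 17.3% of all genes were. JARID2, a PRC2 cofactor, rose by 0.87 on the log2 scale (SE 0.0894, edgeR adjusted p = 4.43e-09), and EZH1, a methyltransferase of PRC2, by 0.71 (2.77e-07). EZH2, the other methyltransferase of PRC2, rose by 0.24 (edgeR adjusted p = 0.0195), and missed the threshold in 5 of 17 alternatives. EED, a core subunit of PRC2, fell by 0.38 (edgeR adjusted p = 8.65e-05), and SUZ12, another, was at 0.04 (0.707). RBBP4 and RBBP7, also on the list, fell by 0.47 (edgeR adjusted p = 1.71e-05) and 0.64 (6.1e-08). KDM1A, the demethylase of a second complex attributed to HOTAIR, fell by 0.30 (edgeR adjusted p = 0.00141), and its partner RCOR1 by 0.62 (4.22e-07).

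TUG1 (ENSG00000253352), a conserved RNA first described in the retina, lies at chr22:30969245-30979395 on the plus strand. It was measured at 148.5, 178.2 and 190.7 CPM in siMock and at 136.5, 136.1 and 156.7 CPM in siFUBP1. The highest siFUBP1 sample lay above the lowest siMock sample, so the groups overlapped. The fall, a log2 fold change of -0.27 (SE 0.0882, edgeR adjusted p = 0.0105), missed the threshold in 6 of 17 alternatives, with adjusted p up to 0.0878. Other annotated genes hold 10.03% of its 50-base windows. The next genes on the chromosome moved the other way: MORC2, a chromatin ATPase, rose from 37.1 ± 1.39 to 61.4 ± 0.417 CPM (SD, n = 3, log2 fold change 0.73, edgeR adjusted p = 3.79e-08), and SMTN, a smooth muscle cytoskeletal protein, was at 0.28 (0.0240), a value that missed the threshold in 6 of 17 alternatives.

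MIR22HG (ENSG00000186594), at chr17:1711493-1717174 on the minus strand, carries the hairpin of miR-22 in its transcript, and H19 carries that of miR-675. The mature RNAs are shown with their seeds, bases 2 to 8, in capitals, since they are a known product of each host. No read was counted on either hairpin gene. Those of miR-22 and miR-675 share 85 and 73 bases with exons of their hosts on the same strand. This 0 therefore cannot show that the hairpins were absent, and the libraries do not measure the mature forms.
hsa-miR-22-3p: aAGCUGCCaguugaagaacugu
hsa-miR-22-5p: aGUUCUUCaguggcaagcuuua
hsa-miR-675-3p: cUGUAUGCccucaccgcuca
hsa-miR-675-5p: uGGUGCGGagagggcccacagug
The 4 seeds differ from each other. MIR22HG was measured at 54.0, 52.4 and 52.1 CPM in siMock and at 38.2, 42.2 and 42.8 CPM in siFUBP1. The siMock samples were close together and all above the siFUBP1 samples. With a log2 fold change of -0.36 (SE 0.0861, edgeR adjusted p = 0.000732), the fall passed the threshold under every alternative. WDR81, a gene of endosome traffic that overlaps MIR22HG on the opposite strand with no shared exon, also fell (-0.57, edgeR adjusted p = 1.86e-06), though after correction for GC content and length it was at -0.20. TLCD2 (0.20, edgeR adjusted p = 0.102) and TSR1 (0.17, 0.0657), the other genes of this locus, missed the threshold.

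H19 (ENSG00000130600) was the most variable of the set in siFUBP1, though not in siMock. It lies at chr11:1995176-2001470 on the minus strand and is made from the maternal copy. Its level was 43.1, 28.1 and 35.5 CPM in siMock and 42.3, 12.4 and 110.4 CPM in siFUBP1. The siFUBP1 samples enclosed all siMock samples, the second being the lowest and the third the highest of the 6. The reads behind them were 715, 215 and 1928, so the spread is far beyond counting error. The CV was 21% in siMock, below the 24.5% of MALAT1, and 91.3% in siFUBP1, where 0.018% of the 11115 genes with 100 counts or more on average varied more. The log2 fold change of 0.63 (SE 0.844, edgeR adjusted p = 0.570) was not larger than this spread, and without siFUBP1 replicate 3 it was -0.38 (edgeR adjusted p = 0.671). Over all alternatives the adjusted p lay between 0.183 and 0.881. IGF2, the growth factor gene that shares its control region, had no read in any sample.

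KCNQ1OT1 (ENSG00000269821), the RNA that silences the neighboring imprinted genes on the paternal copy, had few reads. It lies at chr11:2608328-2699994 on the minus strand, wholly inside KCNQ1, a potassium channel gene on the plus strand. The reads numbered 30, 35 and 45 in siMock and 14, 9 and 21 in siFUBP1, which is 1.84, 2.06 and 2.88 CPM and 0.829, 0.519 and 1.20 CPM. All siFUBP1 samples were below all siMock samples. The log2 fold change was -1.40 (SE 0.352, edgeR adjusted p = 0.00126), past 2-fold as 9.13% of all genes and 8.59% of the long noncoding genes were in this direction. On log2(FPKM + 1), where its FPKM is far under the pseudocount, it was -0.02 (limma adjusted p = 0.676). On log2(FPKM + 0.1) it was -0.19 (limma adjusted p = 0.418), so KCNQ1OT1 missed both thresholds on either scale.

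KCNQ1 itself fell, from 53.1, 50.3 and 47.1 CPM in siMock to 24.9, 21.6 and 26.1 CPM in siFUBP1 (log2 fold change -1.05, SE 0.0959, edgeR adjusted p = 5.40e-10). The genes share 121 exonic bases, and the rest of KCNQ1OT1 lies over KCNQ1 introns. As the kit keeps no strand, reads of KCNQ1OT1 and of unspliced KCNQ1 cannot be told apart.

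The other genes of the imprinted cluster did not move together. CDKN1C, a cell cycle inhibitor made from the maternal copy, fell from 329.4, 294.6 and 248.8 CPM to 126.1, 119.9 and 111.1 CPM (log2 fold change -1.29, SE 0.0905, edgeR adjusted p = 6.09e-12). PHLDA2, a growth restrainer of the placenta, rose by 0.66 on the log2 scale (SE 0.0975, edgeR adjusted p = 4.21e-06). SLC22A18, a transporter, rose by 0.57 (SE 0.0778, edgeR adjusted p = 5.50e-07).

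**Figure D3:**
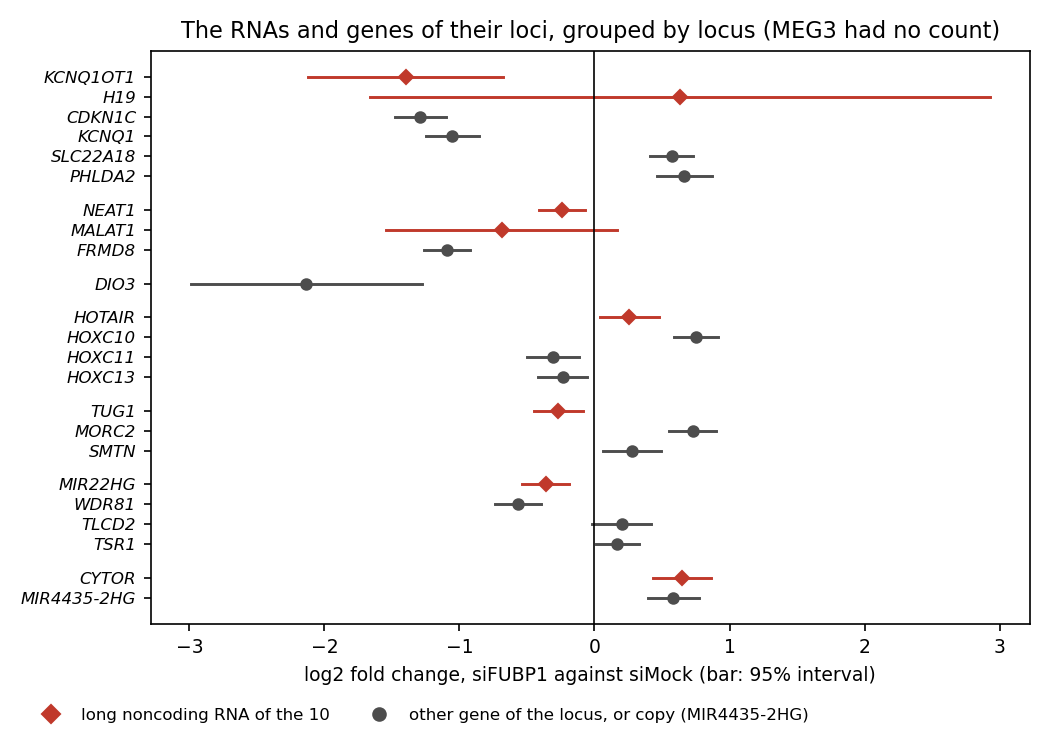
Log2 fold change with its 95% interval for the RNAs (diamonds) and other tested genes of their loci (circles), in blocks by locus, with MIR4435-2HG as the copy of CYTOR and DIO3 standing for the locus of MEG3. Within the block of KCNQ1OT1 the values run from -1.40 for KCNQ1OT1 to 0.66 for PHLDA2, and around TUG1 both neighbors lie above 0 and TUG1 below it.

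MEG3 (ENSG00000214548), at chr14:100779410-100861031 on the plus strand, is a maternally made RNA that is lost in many tumors. It had 0 reads in all 6 samples, which allows a level of up to 0.172 to 0.184 CPM by the sample, at 3 reads of its total. DLK1, RTL1, MEG8 and MEG9, genes of the same imprinted region, had no read either. DIO3, a thyroid hormone deiodinase at the far end of the region, was measured at 3.43, 2.35 and 1.41 CPM in siMock and at 0.533, 0.231 and 0.859 CPM in siFUBP1. The groups did not overlap, and DIO3 fell (log2 fold change -2.13, SE 0.416, edgeR adjusted p = 8.51e-05) on 4 to 56 reads per sample.

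Near NEAT1 and MALAT1, FRMD8, a regulator of protein shedding, fell from 137.5, 137.7 and 118.4 CPM in siMock to 58.6, 64.5 and 61.5 CPM in siFUBP1 (log2 fold change -1.09, SE 0.0823, edgeR adjusted p = 1.52e-11). Of all 16 tested genes of the loci, 6 rose and 7 fell by edgeR's test, beside 30.1% of all genes in each direction. CDKN1C, KCNQ1, FRMD8 and DIO3 fell past 2-fold, 4 of 16 beside 9.13% of all genes in this direction. After correction for GC content and length KCNQ1 (-0.74) and FRMD8 (-0.86) were under 2-fold. Over the 17 alternatives KCNQ1 was under 2-fold in 4, FRMD8 in 2, DIO3 in 1 and CDKN1C in 0.

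Other long noncoding RNAs linked to cancer were mostly higher in siFUBP1. Of a list of 55, 42 were tested, and 26 rose and 5 fell by edgeR's test, with a median log2 fold change of 0.56. Over all long noncoding genes 31.3% rose and 14.1% fell. Past 2-fold were 16, of which 13 were higher, beside 28.1% and 19.5% of the long noncoding genes. The share of all counts on long noncoding genes was 1.42% ± 0.0254 (SD, n = 3) in siMock and 1.66% ± 0.0444 in siFUBP1, with no overlap (exact permutation test, two-sided, p = 0.1, the smallest possible), while the share on the 10 RNAs was lower.

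The largest rises of that list were in MIR100HG (log2 fold change 2.30, SE 0.0995, edgeR adjusted p = 3.49e-16), host of miR-100, and MIR155HG (2.30, SE 0.456, 0.000104), host of miR-155. LINC00662 (2.06), LUCAT1 (1.89), an RNA of the stress response, and FIRRE (1.84), a nuclear RNA of the X chromosome, followed. MIR155HG was low, at 0.267 ± 0.0464 CPM in siMock and 1.34 ± 0.252 CPM in siFUBP1 (SD, n = 3). GAS5 and SNHG1, hosts of small nucleolar RNAs, rose by 0.87 (edgeR adjusted p = 6.60e-10) and 1.06 (7.37e-11) and were chosen after their values were seen. The falls past 2-fold were in HCP5 (-1.70, SE 0.306, edgeR adjusted p = 3.12e-05), TINCR (-1.26, SE 0.101, 5.38e-11), an RNA of epidermal differentiation that the table types as protein coding and that is thus not among the 2213 long noncoding genes, and LINC00963 (-1.12, SE 0.0803, 5.89e-12). After correction for GC content and length LINC00963 (-0.99) and SNHG1 (0.91) were under 2-fold, and 13 of the list were past it in place of 16. NORAD, an abundant cytoplasmic RNA that binds Pumilio proteins and was also chosen after its value was seen, was at 0.14 (edgeR adjusted p = 0.152).

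**Figure D4:**
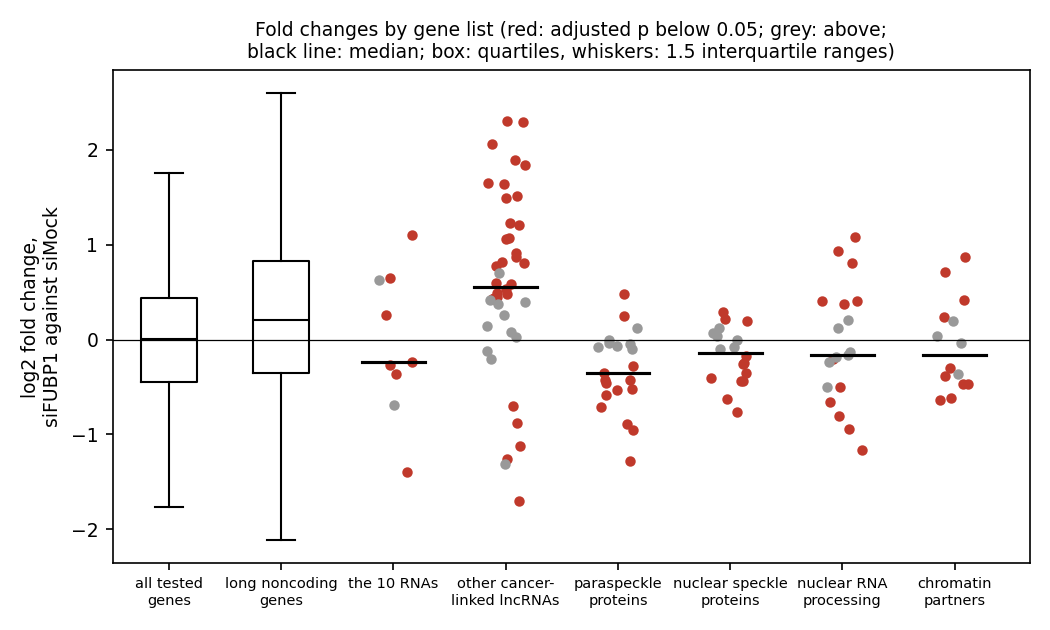
Log2 fold change by gene list: boxes for all tested genes and for long noncoding genes, and 1 point per gene for the 10 RNAs, the other cancer-linked long noncoding RNAs and 4 lists of nuclear proteins, with a line at each median. The median of the other cancer-linked RNAs (0.56) lies above 0 and that of the paraspeckle genes (-0.35) below it, while the 9 detected RNAs of the set lie on both sides.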

How the data were processed

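RNA of cells labelled MG63 was sequenced by the authors from poly(A)-selected, non-directional libraries. The deposited table holds, per the file headers, read counts per gene without normalization, and FPKM values computed by the authors from counts, gene length and a scaled library size. The authors' own comparison columns (group means, log2 fold changes and p-values) were not used. The submitters' processing notes name HISAT2 2.0.5, StringTie 1.3.3b, featureCounts 1.5.0-p3 and DESeq2 1.16.1. The strand setting is not given in the sources used here. All 58735 gene identifiers, starts and ends match GENCODE 29 (GRCh38).

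Samples were grouped by their labelled transfection. The counts were tested in edgeR 4.0.16 (R 4.3.3) with TMM scaling (the default expression filter, robust quasi-likelihood F test, Benjamini-Hochberg adjustment over 16116 genes). Rose and fell mean an adjusted p below 0.05, and the 2-fold rule adds an absolute log2 fold change above 1. CPM values use TMM-scaled library sizes. The SE was derived from the test, as the absolute log2 fold change divided by the square root of its F statistic. Intervals are 95% and use this SE. The limit for a count of 0 (3 reads of the total count, without the TMM factor) covers counting error only. TMM factors lay between 0.959 and 1.05. No samples were identical, and pairs within a group differed beyond sampling noise (lowest chi-square per gene 5.87). The test was tested on simulated data that had the same spread beyond counting error for all genes. The simulation thus does not cover genes as variable as MALAT1 and H19.

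The members and gene lists, written from general knowledge, were chosen with earlier results of these data known. Genes were named by a rule: all members, FUBP1, each tested gene of the loci, the 5 largest changes past both thresholds in each direction for the other RNAs and each protein list, and the 3 genes most like MALAT1 and NEAT1. Genes of the protein lists under 2-fold, the histone sum, the sequences, the 50-base windows and the CYTOR and MIR4435-2HG sum were chosen after the data were seen. The results of 1 gene of the loci and 1 of the paraspeckle list are not reported here, though counts and medians include them. Where a symbol had several gene identifiers, that with the most reads was used. Sequences come from GENCODE 29, RefSeq (GRCh38.p14) and the study's siRNA list. Alternatives were different scalings and count filters, DESeq2 1.42.0 on all genes with a read, limma 3.58.1 on log2(FPKM + 1) and log2(FPKM + 0.1), a GC and length correction, a replicate block, leaving out each sample and that sum, 17 in all.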

Additional observations from a re-analysis of the deposited data

How the results depend on the processing

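Directions and calls were compared over 17 alternative settings, of which 1, the sum of CYTOR and MIR4435-2HG, was added after seeing the data and alters the counts of those genes only. CYTOR, MIR22HG, PVT1 and FUBP1 kept their direction and an adjusted p below 0.05 in all of them. H19 changed sign, to -0.38, without siFUBP1 replicate 3, and was at 1.11 without siFUBP1 replicate 2. MALAT1 passed the threshold with limma on log2(FPKM + 1) (-0.68, adjusted p = 0.0474), with adjusted p between 0.0474 and 0.303 over its alternatives. On that scale 1050 genes, 0 of the 10 RNAs, 7 of the other cancer-linked RNAs, 2 genes of the loci and 1 gene of the protein lists were past 2-fold, against 2787, 2, 16, 4 and 3, since a pseudocount shrinks the fold of low genes. On log2(FPKM + 0.1), 4 of the 10 RNAs passed the adjusted p and 1 was past 2-fold, beside 9172 and 2340 of all genes tested. With library size alone as the scale the median of all genes was at 0.0986, 56.9% of the calls past 2-fold were higher in siFUBP1 against 47.2%, and 2 genes of the loci were past 2-fold. The correction for GC content and length also left 2, and gave 10 falls in place of 6 among the genes of nuclear RNA processing. Speckle genes that fell numbered 12 under that correction in place of 9, and 6 with library size alone or without siFUBP1 replicate 1. The causes of these changes other than the pseudocount were not tested. Without 1 sample at a time, 2775 to 3059 genes and 2 of the 10 RNAs were past 2-fold, 8905 to 9421 genes and 5 to 7 of the RNAs passed the adjusted p, and the share of counts on the RNAs decreased by 0.0271 to 0.0474 percentage points in siFUBP1. The other cancer-linked RNAs then gave 15 to 17 calls, the loci 3 to 4 and the protein lists 3 to 4.

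The replicate numbers pair the samples by number only, as the correlations of same-numbered deviations were 0.0292, 0.0609 and 0.259, and not every sample correlated best with its own number. With the replicate number as a block, 2793 genes were past 2-fold, 10014 passed the adjusted p, and the same counts of the 10 RNAs passed both rules (7 and 2).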
